A study of Mus musculus with 6 samples.

Results

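The genes described here are the 32 genes of the tricarboxylic acid (TCA) cycle and of its pyruvate and glutamine entry that were chosen by symbol, and each of the 32 matched 1 of the 55335 gene identifiers in the deposited tables. Their RNA was measured in cells given as wild-type bEnd.3. This is an endothelial line from mouse brain that carries the middle T antigen of polyomavirus. The 3 mitochondria libraries came from cells co-incubated for 24 h with mitochondria that had been isolated from primary mouse astrocytes and taken up in 100 µl of medium. The 3 control libraries came from cells given the same volume of medium alone. All cultures grew in high-glucose medium with 10% serum. The labels number the libraries 1 to 3 in each group and do not say whether each was its own culture, so the p-values refer to the spread among these libraries, which could be technical.

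In the TCA cycle, acetyl-CoA condenses with oxaloacetate to citrate, which is oxidised stepwise back to oxaloacetate while NADH, FADH2 and GTP or ATP are formed. Pyruvate enters through a carrier of the inner mitochondrial membrane and is then converted to acetyl-CoA by the pyruvate dehydrogenase complex, which kinases switch off and phosphatases switch on, or to oxaloacetate by pyruvate carboxylase. Glutamine enters as glutamate, which glutamate dehydrogenase or aminotransferases turn into 2-oxoglutarate. Endothelial cells are known for deriving much of their ATP from glycolysis and for using the cycle largely as a source of building blocks.

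No member of the pathway passed the threshold after 24 h with mitochondria, and most of the enzymes had close to the same level in both groups. The largest log2 change with all 6 libraries was that of Pdk1, a kinase that inactivates pyruvate dehydrogenase, which was at 7.39 ± 0.895 FPKM with mitochondria and 5.33 ± 0.891 FPKM in controls (SD, n = 3 each). FPKM are fragments per kilobase of transcript and per 1000000 mapped, so that levels of different genes can be set side by side. Tests were run with limma on log2(FPKM + 1) for genes that reached 1 FPKM in 3 or more of the 6 libraries, and a gene was called at a Benjamini-Hochberg adjusted p under 0.05 over all genes tested. The limma fit called 0 of the 32 members, where it called 1.12% of the 12639 genes tested, 0.467% higher and 0.649% lower. The unadjusted p was under 0.05 for 3 members, Pdk1 and Pdp1 higher and Pdhb lower, or 9.38% of the 32, against 13.9% of all genes. The libraries of the groups did not overlap for 10 members, 6 higher and 4 lower, or 31.2%, against 21.0% of all genes, 9.62% higher and 11.4% lower. The median log2 change of the members was 0.01 and the median size of a change was 0.077, against −0.01 and 0.085 for all genes tested. On the log2(FPKM + 1) scale, the 95% interval of the change lay within 1.5-fold in either direction for 30 of the 32 members (93.8%) and for 89.0% of all genes. The exceptions were Pdk1, whose interval ran to 0.71, and Suclg2, whose interval ran to 0.80. Without control replicate 1 both had a log2 change of 0.51, and without control replicate 2 both had 0.42, so the order of Pdk1 and Suclg2 rests on single libraries.

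**Figure D1:**
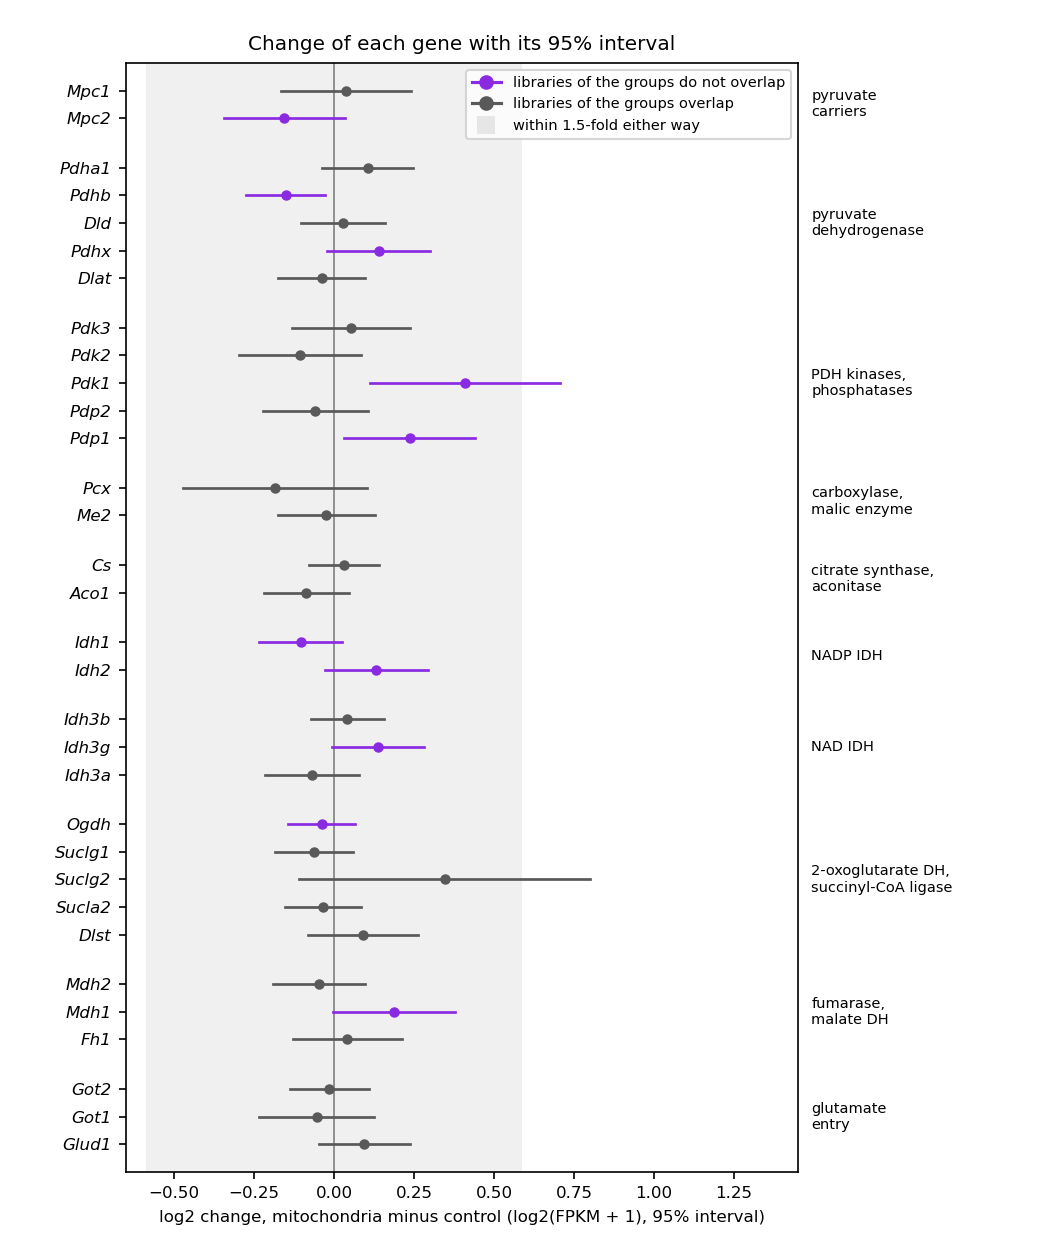
Log2 change of each of the 32 genes (log2(FPKM + 1), mitochondria minus control) with its 95% interval from limma, grouped by role. Purple marks the 10 genes whose libraries do not overlap between the groups, the grey band spans 1.5-fold either way, and only the intervals of Pdk1 and Suclg2 reach beyond it.

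All 32 members were expressed highly enough to be tested. Their mean levels over the 6 libraries ran from 1.86 FPKM for Pdp1 to 84.7 FPKM for Idh1, with a median of 19.3 FPKM, against 7.29 FPKM for all genes tested. Besides Idh1, the highest means were those of Mdh2 (59.5 FPKM), Mdh1 (54.5 FPKM), Idh3b (46.9 FPKM) and Got2 (43.1 FPKM), and the lowest after Pdp1 were those of Pdp2 (3.45 FPKM) and Me2 (3.64 FPKM). The spread between libraries of a group was small, with a median within-group SD of 0.068 on the log2 scale for the members and 0.10 for all genes tested.

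**Figure D2:**
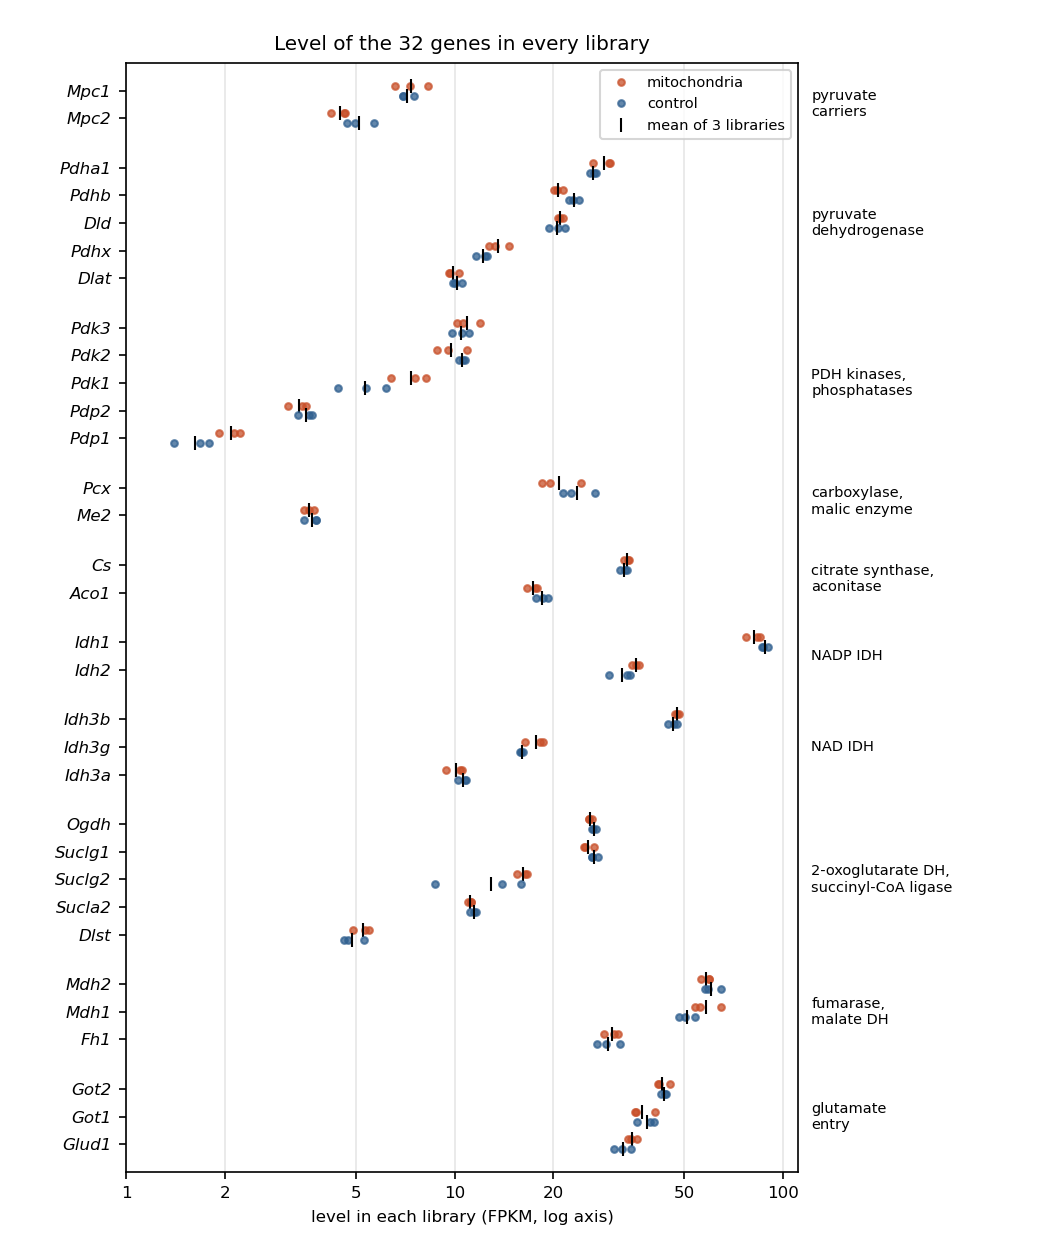
Level of each of the 32 genes in FPKM, on a log axis, in the 3 mitochondria libraries (orange) and the 3 control libraries (blue), with black ticks at the group means. Levels differ far more between genes, from below 2 FPKM for Pdp1 to about 85 FPKM for Idh1, than between the groups.

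The libraries differed in ways that touch these values. The worth of 1 fragment, read from genes with a single transcript, implied 21800000 to 27200000 fragments in the mitochondria libraries and 17000000 to 21100000 in the controls, so that the mitochondria libraries were deeper without overlap. The endothelial identity of the cells is taken from their description, and many endothelial markers do not bear it out, being nearly absent in both groups. The identity was not tested. Cdh5 was at 0.0685 FPKM or less, Pecam1 at 0.269 FPKM or less and Cldn5 at 0.129 FPKM or less. Vwf, Erg, Sox17 and Emcn were at 0.452 FPKM or less, while Eng reached 55.5 to 69.0 FPKM. Of the 16 endothelial markers 7 reached 1 FPKM in any library. The sum of the 16, mostly Cd34 and Eng, was 163 to 176 FPKM with mitochondria and 141 to 149 FPKM in controls. Among them Cd34 rose to a mean of 80.1 FPKM with mitochondria, against 60.3 FPKM in controls (log2 change 0.41, limma adjusted p = 0.0265), while Kdr and Flt1 lay lower with mitochondria without overlap and were not called (log2 change −0.31 and −0.33, limma adjusted p = 0.143 and 0.114). Of 11 astrocyte markers Aqp4, Sox9 and Gjb6 were at 0 in every library and Gfap was at 0.198 FPKM or less. The astrocyte sum was 42.4 to 48.5 FPKM with mitochondria and 26.8 to 63.7 FPKM in controls, mostly Gja1, which ran from 11.7 to 45.98 FPKM among controls, and Aldoc. Aldoc at 17.2, 16.0 and 20.4 FPKM with mitochondria, against 13.2, 13.3 and 16.0 FPKM in controls, lay higher without overlap and was not called (log2 change 0.32, limma adjusted p = 0.268). Aldh1l1 was also higher without overlap, at 0.972, 1.15 and 1.06 FPKM with mitochondria, against 0.416, 0.455 and 0.302 FPKM in controls. It was below the level needed for testing, as was Slc1a2. Slc1a2 was nearly absent, with means of 0.122 FPKM with mitochondria and 0.0476 FPKM in controls. It too was higher without overlap, narrowly, with 0.07443 FPKM as the lowest mitochondria and 0.06835 FPKM as the highest control value. Gja1, Fgfr3, Slc1a3 and S100b went the other way, with lower means with mitochondria and overlap of the groups. Their means were 24.4, 0.301, 0.0522 and 0.944 FPKM with mitochondria, against 34.5, 0.427, 0.105 and 1.00 FPKM in controls. Gfap had a higher mean with mitochondria, with overlap. Of 5 microglia markers Tmem119 alone reached 1 FPKM. Their sum, nearly all Tmem119, was 182 to 208 FPKM with mitochondria and 224 to 272 FPKM in controls. Tmem119 lay lower with mitochondria without overlap and was not called (log2 change −0.33, limma adjusted p = 0.182). P2ry12 was at 0 in every library, and Csf1r overlapped, with means of 0.640 FPKM with mitochondria and 0.516 FPKM in controls. Of 9 fibroblast and mural markers 5 reached 1 FPKM in any library, and Col1a2, Dcn, Lum and Rgs5 did not. The sum of the 9, mostly Col3a1 and Col1a1, was 375 to 414 FPKM with mitochondria and 425 to 461 FPKM in controls. Col1a1 fell to a mean of 83.9 FPKM with mitochondria, against 138 FPKM in controls (log2 change −0.71, limma adjusted p = 0.00547). Col3a1 had a higher mean with mitochondria and Pdgfrb a lower one, both with overlap (231 and 51.7 FPKM, against 220 and 59.8 FPKM in controls). Pdgfra and Acta2 lay higher with mitochondria without overlap and were not called (log2 change 0.28 and 0.27, limma adjusted p = 0.0702 and 0.204). The 37 genes encoded by mitochondrial DNA summed to 30200 to 33340 FPKM with mitochondria and 29570 to 31090 FPKM in controls. The part of these differences in the values below was not tested. In bulk RNA, fewer cells of a type and less RNA per cell cannot be told apart, and neither can transcripts of donor and host, which are both mouse.

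Pyruvate enters the mitochondrion through a carrier made of the Mpc1 and Mpc2 proteins. Mpc1 was at 6.58, 7.33 and 8.27 FPKM in mitochondria replicates 1 to 3, against 6.96, 6.96 and 7.53 FPKM in controls. Mpc2 was at 4.61, 4.64 and 4.21 FPKM with mitochondria, against 5.68, 4.70 and 4.98 FPKM in controls. All 3 mitochondria libraries lay below the controls for Mpc2, by little, and the groups overlapped for Mpc1. The log2 change of Mpc2 was −0.16 (95% interval −0.35 to 0.03, limma adjusted p = 0.445) and that of Mpc1 was 0.04 (limma adjusted p = 0.889). Without control replicate 1 the change of Mpc2 was −0.09. Of the 31-base words of Mpc1, 30.8% also occur in other genes, chiefly the antisense gene 4930506C21Rik and the pseudogene Mpc1-ps. The antisense gene averaged 0.314 FPKM. The level of Mpc1 is uncertain to the extent that fragments are shared.

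The pyruvate dehydrogenase complex is built from a decarboxylase (Pdha1 and Pdhb), an acetyltransferase (Dlat), a dihydrolipoyl dehydrogenase (Dld) and a binding protein (Pdhx). The alpha and beta subunits of the decarboxylase, which pair in equal number in the enzyme, stood on opposite sides of their control levels. Pdhb (ENSMUSG00000021748, chromosome 14, 8165996 to 8173025 on GRCm38) was at 20.5, 21.3 and 20.1 FPKM with mitochondria, against 23.9, 22.9 and 22.4 FPKM in controls. Pdha1 was at 29.6, 29.7 and 26.5 FPKM with mitochondria, against 27.0, 26.6 and 25.8 FPKM in controls. Every mitochondria library was below every control for Pdhb, whereas the groups overlapped for Pdha1 through mitochondria replicate 3. The log2 change of Pdhb was −0.15 (SE 0.05, unadjusted p = 0.0228, limma adjusted p = 0.261) and that of Pdha1 was 0.10 (limma adjusted p = 0.503). The ratio of Pdha1 to Pdhb, in which the scaling of a library cancels, was 1.44, 1.39 and 1.32 with mitochondria, against 1.13, 1.16 and 1.16 in controls. Pdhx, which anchors Dld to the core, was at 13.6 ± 0.978 FPKM with mitochondria and 12.2 ± 0.514 FPKM in controls, without overlap (log2 change 0.14, limma adjusted p = 0.423, and 0.09 as the change without mitochondria replicate 3). Dlat averaged 9.86 FPKM with mitochondria and 10.15 FPKM in controls, and Dld 20.97 FPKM with mitochondria and 20.55 FPKM in controls (limma adjusted p = 0.824 and 0.871). Of the 31-base words of Pdhb 17.9% also occur in other genes, chiefly the predicted gene Gm6123, and of those of Pdha1 15.8%, chiefly Map3k15 on the opposite strand, which averaged 0.141 FPKM.

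Kinases phosphorylate and so inactivate this complex, and 3 of them were expressed, of which Pdk1 alone had an unadjusted p under 0.05. Pdk1 (ENSMUSG00000006494, chromosome 2, 71873224 to 71903858 on GRCm38) was at 7.58, 8.17 and 6.41 FPKM with mitochondria, against 6.20, 5.38 and 4.42 FPKM in controls. The groups did not overlap, though mitochondria replicate 3 lay only just above control replicate 1. Its log2 change was 0.41 (SE 0.13, 95% interval 0.11 to 0.71, unadjusted p = 0.0141, limma adjusted p = 0.215), a size that 95.9% of the genes tested did not exceed. Pdk3, the kinase with the highest mean, was at 10.6, 10.2 and 11.98 FPKM with mitochondria, against 10.6, 9.81 and 11.1 FPKM in controls. Pdk2 was at 8.83, 9.55 and 10.9 FPKM with mitochondria, against 10.6, 10.4 and 10.8 FPKM in controls. The libraries overlapped for Pdk3 and for Pdk2, with log2 changes of 0.05 and −0.11 (limma adjusted p = 0.813 and 0.618). The ratio of Pdk1 to Pdk2 averaged 0.767 ± 0.157 with mitochondria and 0.506 ± 0.0886 in controls (SD, n = 3 each) and met at 0.586, the lowest mitochondria and the highest control value (exact two-sided permutation p = 0.2). Pdk4, the kinase induced by fasting in other tissues, was at 0.382 FPKM or less in every library and was not tested.

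The phosphatases that reactivate the complex were low. Pdp1 (ENSMUSG00000049225, chromosome 4, 11958184 to 11966452 on GRCm38), which is known for its activation by calcium, was at 2.22, 2.13 and 1.92 FPKM with mitochondria, against 1.79, 1.40 and 1.68 FPKM in controls. All mitochondria libraries were above all controls, and the log2 change was 0.24 (SE 0.09, unadjusted p = 0.0301, limma adjusted p = 0.296) on a scale that understates the change of so low a gene. The ratio of its mean FPKM, mitochondria over control, was 1.285. Pdp2 averaged 3.36 FPKM with mitochondria and 3.54 FPKM in controls, with overlap (limma adjusted p = 0.767). A kinase and a phosphatase that act against each other on the same complex both had higher means with mitochondria, and neither passed the threshold.

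The 250 bases upstream of the RefSeq starts of the 3 expressed kinase genes (build GRCm38.p6) are shown because Pdk1, a known target of hypoxia-inducible factors, had the smallest p of the members. Capitals mark every ACGTG and GCGTG, the core letters of the hypoxia-responsive element, on either strand, and each sequence runs 5′ to 3′ on the gene's own strand, at chr2:71872974-71873223 (plus), chr11:95041372-95041621 (minus) and chrX:93832151-93832400 (minus).
Pdk1: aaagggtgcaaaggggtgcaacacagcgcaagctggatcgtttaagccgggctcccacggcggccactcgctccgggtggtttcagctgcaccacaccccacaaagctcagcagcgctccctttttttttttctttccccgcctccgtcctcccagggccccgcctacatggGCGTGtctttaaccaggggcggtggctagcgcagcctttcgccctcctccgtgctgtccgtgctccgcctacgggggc
Pdk2: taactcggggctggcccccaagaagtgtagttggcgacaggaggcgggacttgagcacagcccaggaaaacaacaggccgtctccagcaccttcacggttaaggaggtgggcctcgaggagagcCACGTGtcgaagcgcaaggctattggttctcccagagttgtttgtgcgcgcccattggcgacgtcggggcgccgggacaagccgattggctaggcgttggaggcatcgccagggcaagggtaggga
Pdk3: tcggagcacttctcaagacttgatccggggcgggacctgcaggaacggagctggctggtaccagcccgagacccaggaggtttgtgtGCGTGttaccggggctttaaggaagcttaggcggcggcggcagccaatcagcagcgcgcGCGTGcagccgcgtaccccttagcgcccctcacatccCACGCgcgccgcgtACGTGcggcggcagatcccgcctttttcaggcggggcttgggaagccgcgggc
The Pdk1 window holds 1 match, a GCGTG. The Pdk2 window holds a CACGTG, which reads ACGTG on both strands and so gives 2 matches, and the Pdk3 window holds 4, 1 ACGTG and 3 GCGTG. Of the 29 members matched to a RefSeq promoter, 8 held ACGTG (27.6%) and 16 held GCGTG (55.2%), against 16.6% and 28.2% of all 27025 promoters and 22.6% and 46.8% of the 8934 promoters of genes tested here. These letters are common, and a match is a description of the window only.

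Pyruvate carboxylase, which makes oxaloacetate and is an astrocyte enzyme within the brain, is encoded by Pcx. Pcx was at 18.5, 19.5 and 24.2 FPKM with mitochondria, against 22.6, 21.4 and 26.8 FPKM in controls. The groups overlapped, with replicate 3 the highest of each. The log2 change was −0.18 (95% interval −0.47 to 0.10, limma adjusted p = 0.563), and it was −0.09 without control replicate 3, −0.11 without mitochondria replicate 1 and −0.29 without mitochondria replicate 3. Me2, the mitochondrial malic enzyme that turns malate back into pyruvate, averaged 3.60 ± 0.138 FPKM with mitochondria and 3.68 ± 0.172 FPKM in controls (limma adjusted p = 0.912).

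The cycle begins with citrate synthase, whose gene Cs hardly varied. Cs was at 34.0, 33.8 and 32.8 FPKM with mitochondria, against 33.6, 32.9 and 31.98 FPKM in controls. Its 95% interval, from −0.08 to 0.14 on the log2 scale, bounds the difference closely (limma adjusted p = 0.824). Aco1, the cytosolic aconitase that also acts as an iron sensor, was at 17.6, 17.8 and 16.7 FPKM with mitochondria, against 19.3, 18.5 and 17.7 FPKM in controls. Its groups overlapped (log2 change −0.09, limma adjusted p = 0.561).

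Isocitrate is oxidised by an NAD enzyme of the cycle and by NADP enzymes in the cytosol (Idh1) and the mitochondrion (Idh2), which supply NADPH. Idh1 was at 83.0, 77.2 and 84.8 FPKM with mitochondria, against 90.1, 87.0 and 86.3 FPKM in controls. Idh2 was at 35.7, 36.5 and 34.6 FPKM with mitochondria, against 34.3, 33.6 and 29.5 FPKM in controls. The cytosolic form was thus below and the mitochondrial form above the controls in every library, each narrowly. The log2 changes were −0.10 for Idh1 (95% interval −0.23 to 0.03, limma adjusted p = 0.454) and 0.13 for Idh2 (95% interval −0.03 to 0.29, limma adjusted p = 0.449). The change of Idh2 was 0.07 without control replicate 3, and that of Idh1 was −0.06 without mitochondria replicate 2.

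The NAD enzyme has a catalytic subunit (Idh3a) and regulatory subunits (Idh3b and Idh3g), and its transcripts were unequal in the same order in every library. Idh3b was at 46.9, 47.6 and 48.2 FPKM with mitochondria, against 47.7, 44.5 and 46.4 FPKM in controls. Idh3g was at 18.2, 16.4 and 18.6 FPKM with mitochondria, against 16.0, 16.2 and 15.8 FPKM in controls. The catalytic Idh3a was lowest, at 10.1 ± 0.594 FPKM with mitochondria and 10.6 ± 0.309 FPKM in controls. Idh3g did not overlap between the groups (log2 change 0.14, 95% interval −0.01 to 0.28, limma adjusted p = 0.378). Idh3b and Idh3a overlapped (limma adjusted p = 0.762 and 0.681).

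The 2-oxoglutarate dehydrogenase complex shares Dld with pyruvate dehydrogenase, and its other subunits are Ogdh and Dlst. Ogdh was at 25.7, 25.6 and 26.2 FPKM with mitochondria, against 26.3, 26.5 and 26.9 FPKM in controls. The libraries did not overlap, yet the change was −0.04 (95% interval −0.14 to 0.07, limma adjusted p = 0.755), and only 0.3% of the genes tested had so small a spread within groups. Dlst, the succinyltransferase, was at 5.25 ± 0.298 FPKM with mitochondria and 4.87 ± 0.366 FPKM in controls, with overlap.

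Succinyl-CoA ligase joins the shared alpha subunit Suclg1 with a beta subunit that is specific for GTP (Suclg2) or ATP (Sucla2). Suclg2 was at 16.4, 16.6 and 15.5 FPKM with mitochondria, against 15.9, 14.0 and 8.74 FPKM in controls. Its group means differed chiefly through control replicate 3, and the groups overlapped. The log2 change was 0.35 (95% interval −0.11 to 0.80, limma adjusted p = 0.486) and was 0.11 without control replicate 3. Other genes share 20.7% of its 31-base words. Sucla2 averaged 11.1 FPKM with mitochondria and 11.4 FPKM in controls, and Suclg1 25.5 FPKM with mitochondria and 26.65 FPKM in controls, with overlap of the groups (limma adjusted p = 0.817 and 0.654).

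Fumarase (Fh1) and malate dehydrogenase (Mdh2 in the mitochondrion) complete the cycle, and cytosolic Mdh1 works in the malate-aspartate shuttle, which carries NADH equivalents inward. Mdh2 was at 56.2, 59.6 and 59.5 FPKM with mitochondria, against 64.7, 57.9 and 58.9 FPKM in controls. Mdh1 was at 64.6, 53.97 and 56.0 FPKM with mitochondria, against 53.97, 50.3 and 48.4 FPKM in controls. Mdh1 was higher with mitochondria, but mitochondria replicate 2 and control replicate 1 were nearly equal, while Mdh2 overlapped. The log2 change of Mdh1 was 0.19 (95% interval −0.0041 to 0.38, unadjusted p = 0.0538, limma adjusted p = 0.369) and that of Mdh2 was −0.05 (limma adjusted p = 0.783). Without mitochondria replicate 1 the change of Mdh1 was 0.11. Fh1 averaged 30.2 ± 1.49 FPKM with mitochondria and 29.4 ± 2.35 FPKM in controls (limma adjusted p = 0.850).

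Glutamate enters through glutamate dehydrogenase (Glud1) and the aspartate aminotransferases of the cytosol (Got1) and the mitochondrion (Got2). Got2 was at 41.6, 42.0 and 45.3 FPKM with mitochondria, against 42.4, 43.9 and 43.7 FPKM in controls. Glud1 was at 34.5, 33.6 and 36.0 FPKM with mitochondria, against 30.7, 32.2 and 34.5 FPKM in controls. The groups overlapped for both, and for Got1, which averaged 37.2 ± 3.00 FPKM with mitochondria and 38.6 ± 2.40 FPKM in controls. The log2 changes were −0.01, 0.09 and −0.05 for Got2, Glud1 and Got1 (limma adjusted p = 0.941, 0.541 and 0.806). Of the 31-base words of Got2 30.9% and of Glud1 10.4% also occur in other genes, chiefly pseudogenes.

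**Figure D3:**
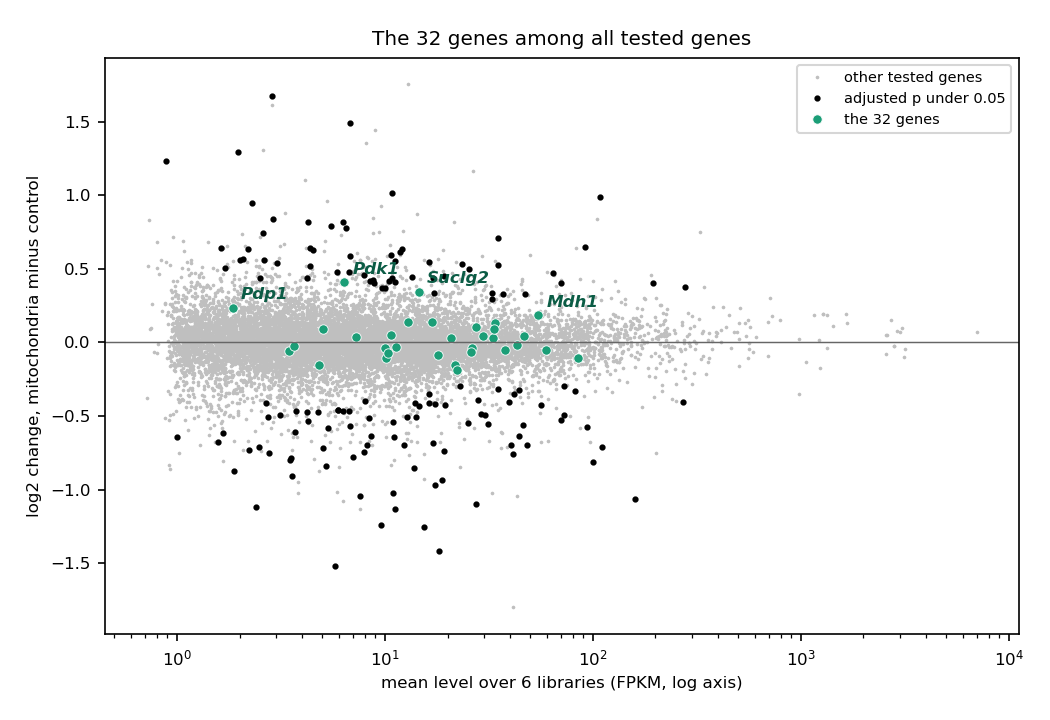
Log2 change, mitochondria minus control, against the mean level over 6 libraries in FPKM (log axis) for the 12639 tested genes, with the 32 genes in green and other genes with an adjusted p under 0.05 in black. The 32 genes lie between −0.18 and 0.41, and none is among the genes called.

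Ratios between genes that work as pairs were compared in each library, since the scaling of a library cancels in them. There were 11 ratios, chosen after the values were seen, of which 10 are reported here, and 7 of them did not overlap between the groups. The share of other gene pairs without overlap was not computed, so this count is a description of these pairs only. The exact two-sided permutation test cannot go below p = 0.1 with 3 against 3 libraries, and each of the 7 reached that value, 0.157 after Benjamini-Hochberg adjustment over the 11. Cytosolic over mitochondrial transcript was lower with mitochondria for isocitrate dehydrogenase, with Idh1 over Idh2 at 2.33, 2.12 and 2.45 against 2.63, 2.59 and 2.93 in controls. It was higher for malate dehydrogenase, with Mdh1 over Mdh2 at 1.15, 0.905 and 0.941 against 0.834, 0.869 and 0.821 in controls. The cytosolic forms thus did not stand apart in a common direction. Me1 over Me2, the malic enzymes, was at 9.37, 9.32 and 10.6 with mitochondria, against 12.6, 11.3 and 12.7 in controls. The pair Got1 over Got2 overlapped (exact permutation p = 0.6). The other ratios without overlap were Pdha1 over Pdhb, Idh3g over Idh3a, Pdp1 over Pdp2 and Suclg2 over Sucla2, with log2 differences of 0.27, 0.22, 0.44 and 0.41. All but Pdha1 over Pdhb were nearly touching. The closest mitochondria and control values were 1.56 and 1.54 for Idh3g over Idh3a and 0.544 and 0.536 for Pdp1 over Pdp2. For Suclg2 over Sucla2 they were 1.38 and 1.37. The log2 difference of Pdp1 over Pdp2 ran from 0.31 to 0.56 when each library was omitted in turn. Without each library in turn, the log2 difference stayed between 0.24 and 0.30 for Pdha1 over Pdhb and between −0.29 and −0.18 for Idh1 over Idh2. It ran from 0.15, without control replicate 3, to 0.57 for Suclg2 over Sucla2, from 0.14, without mitochondria replicate 3, to 0.30 for Idh3g over Idh3a, and from 0.13, without mitochondria replicate 1, to 0.31 for Mdh1 over Mdh2.

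**Figure D4:**
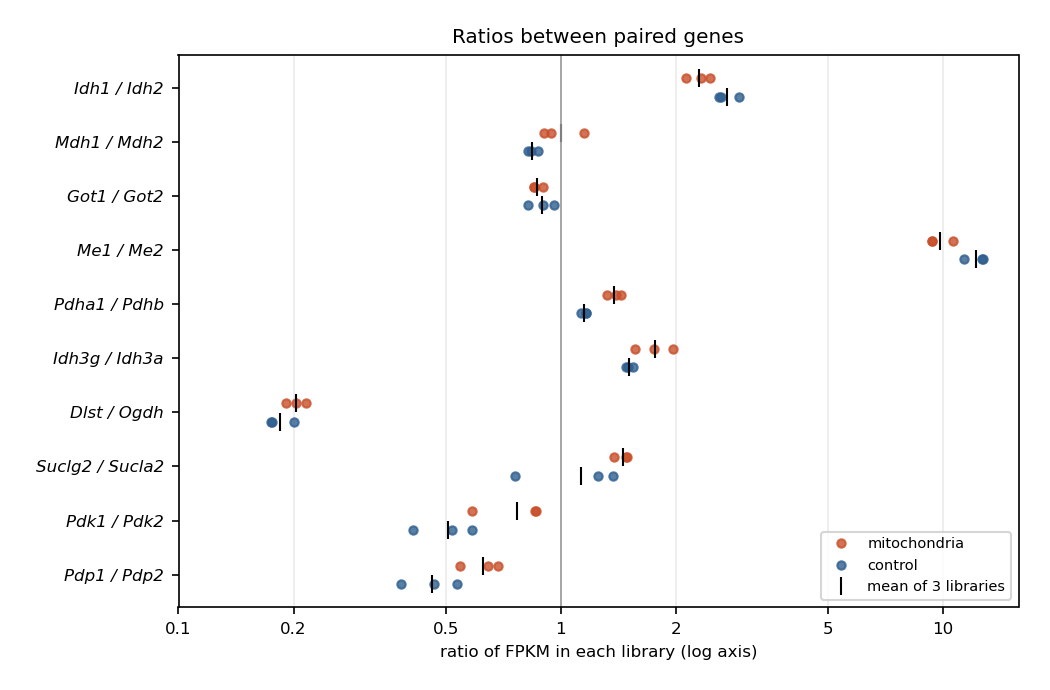
Ratio of FPKM between genes of 10 pairs in each library, on a log axis, for the 3 mitochondria libraries (orange) above the 3 control libraries (blue), with black ticks at the group means. The pairs Idh1 over Idh2 and Me1 over Me2 lie lower with mitochondria and Pdha1 over Pdhb and Mdh1 over Mdh2 lie higher, without overlap.

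Of 31 further genes of the pathway, which cover succinate dehydrogenase, glutamine supply, carriers and side exits, 26 were tested, and limma called 0 of them. The limma fit called 1.12% of all genes tested. At an unadjusted p under 0.05 there were 5 (19.2%), 2 higher and 3 lower, against 13.9% of all genes, and the median log2 change was 0.02. Sdha, the flavoprotein of succinate dehydrogenase, averaged 80.95 ± 2.25 FPKM with mitochondria and 76.3 ± 1.025 FPKM in controls, without overlap (limma adjusted p = 0.491). Glul, which makes glutamine, was at 36.4 ± 1.28 FPKM with mitochondria and 38.2 ± 1.27 FPKM in controls. Acly, which splits exported citrate for lipid synthesis, was at 106 ± 5.54 FPKM with mitochondria and 110.3 ± 8.35 FPKM in controls. These genes overlapped between the groups apart from Sdha. The 5 with an unadjusted p under 0.05 were named after their values were seen. Me1, the cytosolic malic enzyme that yields NADPH, was at 33.7, 34.9 and 37.0 FPKM with mitochondria, against 44.0, 42.65 and 48.2 FPKM in controls (log2 change −0.34, limma adjusted p = 0.0702). Ldha, which converts pyruvate to lactate, was at 116, 125 and 119 FPKM with mitochondria, against 107, 94.7 and 92.4 FPKM in controls (log2 change 0.29, limma adjusted p = 0.136). The groups did not overlap for any of these 5 genes. Of the 26 tested, 6 (23.1%) did not overlap, 3 higher and 3 lower, against 21.0% of all genes. Pck2, the mitochondrial phosphoenolpyruvate carboxykinase, had a log2 change of 0.25, Slc1a5, a plasma membrane glutamine transporter, one of −0.31 and Slc25a22, a mitochondrial glutamate carrier, one of −0.19, and their limma adjusted p-values were 0.178, 0.204 and 0.293.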

How the data were processed

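Per the labels' protocols, mRNA libraries that keep strand were made from column-purified RNA. Per the submitters' processing notes, the tools were StringTie 1.3.1c, STAR 2.5.3a and FastQC 0.11.5, and the build was GRCm38 (mm10). Their roles, settings, the annotation release and the use of strand in quantification are not given in the sources used here. The authors deposited 1 column per library, read as FPKM from the values, since no header names the unit. Symbols and positions came from GENCODE M21 on GRCm38, which matched 55154 of 55335 identifiers, and upstream sequences from RefSeq.

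The log2(FPKM + 1) values were fitted by group alone in limma 3.58.1 (R 4.3.3), with eBayes set to trend and robust. No count model was used. The fit was checked on simulated data with independent libraries, which leaves out any likeness between same-numbered libraries. Ratios were compared with exact permutation tests in scipy 1.17.1. Shared 31-base words were counted over GENCODE transcripts on either strand. The alternatives were other pseudocounts, filters, scalings and variance models, omission of mitochondrial DNA genes, a replicate block and omission of each library. Values in every library are given for members with an unadjusted p under 0.05 and, in each role, for the member with the highest mean and the one with the smallest p. Some others are given likewise. The members and lists were chosen with earlier results of these data known. Some genes of the pathway are not reported here.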

Additional observations from a re-analysis of the deposited data

How the results depend on the processing

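Of the 32 members, limma called 0 under each of the 16 other settings, in which 28 members were left to test at a mean of at least 5 FPKM. The members' lowest adjusted p was 0.101, that of Pdk1 with the replicate block. The adjusted p of Pdk1 ran from 0.101 to 0.497, that of Pdhb from 0.218 to 0.554 and that of Pdp1 from 0.248 to 0.606. Pdk1 had an unadjusted p under 0.05 in all 16 settings, Pdhb in 13 and Pdp1 in 12 of the 15 that tested it. The sign of the change held in every setting for 26 members, and for 6 (Dld, Fh1, Got2, Mdh2, Mpc1 and Pdk3) it turned in at least 1. The other pathway genes had 1 call with quantile normalization, Ldha at an adjusted p of 0.047, and 0 in the other settings. The adjusted p of Me1 ran from 0.0621 to 0.264. The count over all genes, 141, was 13 with no filter and 56 with the replicate block, and without a library it was 15, 16 and 28 for mitochondria replicates 1 to 3 and 84, 21 and 84 for control replicates 1 to 3. Across genes, the deviations of same-numbered libraries from their group means had correlations of 0.102, 0.046 and 0.30 for replicates 1, 2 and 3. Mitochondria replicate 1 correlated slightly better with control replicate 2, at 0.123. The replicate 3 libraries resembled each other most, at 0.30. Their correlations with the other numbers of the other group, −0.203 to −0.132, largely follow from that value, because deviations from a group mean cancel. The main fit did not take the numbers as pairs, and the block changed no call of a member. The median log2 change of all genes stayed within 0.1 of 0 under each setting. Depth was read from FPKM only, and the intervals of Pdk1 and Suclg2 reach past 1.5-fold with these 3 libraries a group. The cause of these differences was not tested.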

Other observations

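The members did not share the order of their libraries. Replicate 3 was the highest library of both groups for 6 members, Ogdh, Pdk2, Pdk3, Pcx, Mpc1 and Glud1, and the lowest of both for 9, Cs, Aco1, Idh2, Idh3a, Suclg2, Fh1, Pdha1, Pdhb and Pdk1. These are 46.9% of the members, against 41.8% of the 12639 genes tested. The same count was 21.9% of the members for replicate 1 and 9.4% for replicate 2, against 23.4% and 17.6% of the genes tested.

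Some transcripts of the same complex were unequal in all 6 libraries, as were Dlst and Ogdh, and Idh3g and Idh3a. Others were close, such as Pdhb and Dld, with means of 20.65 and 20.97 FPKM with mitochondria. Dlst was at 0.203 ± 0.0118 of the level of Ogdh with mitochondria and 0.184 ± 0.014 in controls (SD, n = 3 each), and Idh3g was at 1.76 ± 0.204 times the level of Idh3a with mitochondria and 1.51 ± 0.032 times in controls.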
